A study of Rattus norvegicus with 6 samples.

Results

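The superoxide dismutases Sod1, Sod2 and Sod3, the catalase gene Cat and the glutathione peroxidases Gpx1, Gpx2, Gpx3 and Gpx4 were followed across the cell types of the rat pancreas. These 8 genes were chosen by name, and all 8 were among the 32883 genes counted. The libraries came from islet preparations of 6 male Wistar rats, made by collagenase digestion and a density gradient and read by droplet single-cell RNA sequencing, which counts transcripts as unique molecular identifiers (UMIs). The young group (n = 2) was sampled at 2 months of age on a normal diet, the old group (n = 2) was kept on a normal diet until 20 months, and the HFHF-old group (n = 2) received a high-fat high-fructose diet for the same 18 months. Levels are given as CPM, the UMIs of a gene for every 1000000 UMIs of a cell class in 1 rat, and each UMI marks 1 transcript by its 3′ end, so that genes can be compared without a length term. The question was how much transcript for each enzyme beta cells hold beside the other cell types, and whether age or the diet moved it.

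Superoxide, a by-product of respiration, is turned into hydrogen peroxide by superoxide dismutases. Sod1 works in the cytosol with copper and zinc, Sod2 in the mitochondrial matrix with manganese, and Sod3 is secreted. Hydrogen peroxide is then removed by catalase, which sits in peroxisomes, and by glutathione peroxidases, which use glutathione and, in the members named here, carry selenocysteine. Gpx1 acts in the cytosol and mitochondria, Gpx2 is the gastrointestinal form, Gpx3 is secreted, and Gpx4 reduces lipid peroxides in membranes. Pancreatic beta cells are known for a weak supply of the peroxide-removing enzymes.

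The libraries held 78024 cell barcodes and between 77387928 and 166875258 UMIs each. Any pair of libraries shared between 20 and 69 barcodes, at most 0.604% of the smaller one. Cells were grouped by clustering without the 8 genes, and islet cells were typed by their dominant hormone, which left, in rats with at least 10 cells of a class, 1828 beta, 1613 alpha, 977 PP (pancreatic polypeptide), 4434 acinar, 423 ductal, 12587 fibroblast, 1955 endothelial and 41663 immune cells. Marker genes were highest in their own class for 9 of 10 beta, 4 of 4 PP, 15 of 15 acinar, 11 of 12 ductal, 11 of 11 fibroblast and 11 of 11 endothelial markers, but for only 4 of 8 alpha markers. The second HFHF-old library stood apart. It held 4 beta, 3 alpha and 2 ductal cells and no PP cell, so those classes rest on 1 HFHF-old rat, and 78.0% of its immune cells were NK cells against 9.25% to 14.2% in the other 5. Insulin transcripts made up 558809 to 773428 CPM in beta cells, so CPM are pressed down there for every other gene. Insulin transcripts were also counted in other classes, up to 83397 CPM in acinar cells of the first old rat, and the part of RNA carried over between droplets in the results was not tested.

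The upstream sequences of 3 genes are shown from the RefSeq promoter table (build GRCr8), each as the 250 bases before the annotated start. Gpx1 and Cat are the peroxide-removing genes that were lower in beta cells than in 4 other classes, and Gpx2 is the one held mostly by ductal and PP cells among the 8 classes compared. A window was found for 7 of the 8 members, Sod3 being without one. The motifs searched on both strands were the core of the antioxidant response element (TGACNNNGC), the CCAAT box (CCAAT) and the GC box (GGGCGG). They were found in 10.1%, 34.0% and 30.5% of the 33469 windows of the table.
Gpx1 (chr8:117905212-117905461, + strand; capitals, the GC box): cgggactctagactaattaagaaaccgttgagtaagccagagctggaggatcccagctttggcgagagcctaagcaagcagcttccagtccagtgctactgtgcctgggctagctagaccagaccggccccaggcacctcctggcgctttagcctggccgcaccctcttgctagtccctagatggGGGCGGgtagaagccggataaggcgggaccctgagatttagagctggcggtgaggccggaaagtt
Cat (chr3:110329527-110329776, - strand; capitals, the CCAAT box on either strand): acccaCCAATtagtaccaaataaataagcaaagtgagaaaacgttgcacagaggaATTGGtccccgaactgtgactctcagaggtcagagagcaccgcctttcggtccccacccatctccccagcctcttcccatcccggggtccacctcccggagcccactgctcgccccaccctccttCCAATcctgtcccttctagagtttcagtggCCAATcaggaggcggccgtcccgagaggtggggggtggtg
Gpx2 (chr6:101230034-101230283, - strand; capitals, the antioxidant response element core): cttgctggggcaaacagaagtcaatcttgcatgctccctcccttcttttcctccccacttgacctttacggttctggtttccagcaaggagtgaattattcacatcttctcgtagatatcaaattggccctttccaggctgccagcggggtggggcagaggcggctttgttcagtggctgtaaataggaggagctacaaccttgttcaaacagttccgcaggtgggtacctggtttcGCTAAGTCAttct
The Cat window held 4 CCAAT boxes and no GC box, and the Gpx1 window held 1 GC box and no CCAAT box. The antioxidant response element core was found in the windows of Gpx2 and Sod2 and in no other member's window. These are matches of letters and not measured binding sites.

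In CPM, Gpx1 was lowest in beta cells of all 8 classes. Its level was 42.2 and 66.4 CPM in the young rats, 49.5 and 44.0 in the old rats and 90.3 in the HFHF-old rat with beta cells. All 5 values lay below every value of the other 7 classes, where the lowest was 110 CPM in PP cells. With the hormone and digestive enzyme genes removed from the totals, beta cells held 158 to 311 CPM, which overlapped alpha (184 to 243) and PP cells (168 to 222), and lay below PP cells in 2 of 5 rats and below alpha cells in 3 of 5. Gpx1 was highest in immune cells, at 1007 ± 461 CPM (mean ± SD, n = 6), and within them in macrophages, at 1511 to 2129 in 5 rats. NK cells held 99.4 to 148 and T cells 143 to 171, and the immune level was 159 in the NK-rich second HFHF-old library. The part of the make-up of the class in that value was not tested. Mean levels in the other classes were 403 in endothelial, 310 in fibroblast, 308 in ductal, 240 in acinar, 135 in alpha and 122 CPM in PP cells, and the ranges of fibroblast and ductal cells overlapped, as did those of alpha and PP cells.

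Because insulin fills so much of the beta cell total, beta cells were also compared with each class in a fit that scales classes to each other by trimmed means (TMM) and blocks on the rat. On that scale Gpx1 was lower in beta cells than in immune cells by a log2 fold change of -2.59 (SE 0.28, edgeR quasi-likelihood test, Benjamini-Hochberg adjusted p = 2.04e-10). It was also lower than in acinar cells (log2 fold change -2.54), endothelial cells (-1.06) and fibroblasts (-0.94, the smallest of the 4 called differences). Macrophage markers summed to 0 CPM in acinar cells of the second HFHF-old library and to 611 to 2512 in those of the other rats. In beta cells they summed to 167 to 399 CPM. Their part in the acinar values of Gpx1 and Cat was not tested. Against ductal (-0.33), alpha (-0.12) and PP cells (0.08) Gpx1 did not pass the threshold. Without the rat block the fibroblast call was lost. Scaled by total UMIs alone, the 4 called differences were also called and lower, from -2.21 against acinar to -4.18 against immune cells, and those against ductal (-2.42), alpha (-1.26) and PP cells (-1.09) were called as well.

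Cat was low in all 3 hormone classes. Its level in beta cells was 39.0 and 6.79 CPM in the young rats, 11.4 and 6.91 in the old rats and 22.2 in the HFHF-old rat. The first young rat was highest, and these values rest on 33 to 149 UMIs. Alpha cells held 15.5 ± 4.84 and PP cells 18.1 ± 6.96 CPM (mean ± SD, n = 5), within the range of beta cells. Endothelial cells held 96.8 ± 14.2 (n = 6), immune cells 78.9 ± 30.9, ductal cells 78.5 ± 19.3 (n = 5), fibroblasts 72.0 ± 16.5 and acinar cells 25.4 ± 14.6. In every rat Cat in CPM was lower in beta cells than in acinar, ductal, fibroblast, endothelial and immune cells of the same rat. With the hormone and digestive enzyme genes removed from the totals this held in 4 of 5 rats, and in the first young rat Cat was higher in beta cells than in all 5 of those classes, at 146 CPM against 24.95 to 51.7 in beta cells of the other 4 rats. In the TMM fit Cat was lower in beta cells than in acinar cells (log2 fold change -1.19, SE 0.24, edgeR adjusted p = 8.58e-05), and the other called differences on that side were -1.0 against endothelial cells, -0.90 against immune cells and -0.73 against fibroblasts. These 4 were lower and called with total UMIs alone too, and the fibroblast and immune calls were lost without the rat block. Against ductal cells Cat was at -0.41 (SE 0.25, edgeR adjusted p = 0.182) and not called, and at -2.50 and called with total UMIs alone. Cat was higher in beta than in alpha cells (1.11) and PP cells (0.90) on the TMM scale, but without the first young rat neither was called, the PP call was also lost with 80% of hormone UMIs required and at resolution 2, and with total UMIs alone the values were -0.01 and -0.22 and not called.

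**Figure D1:**
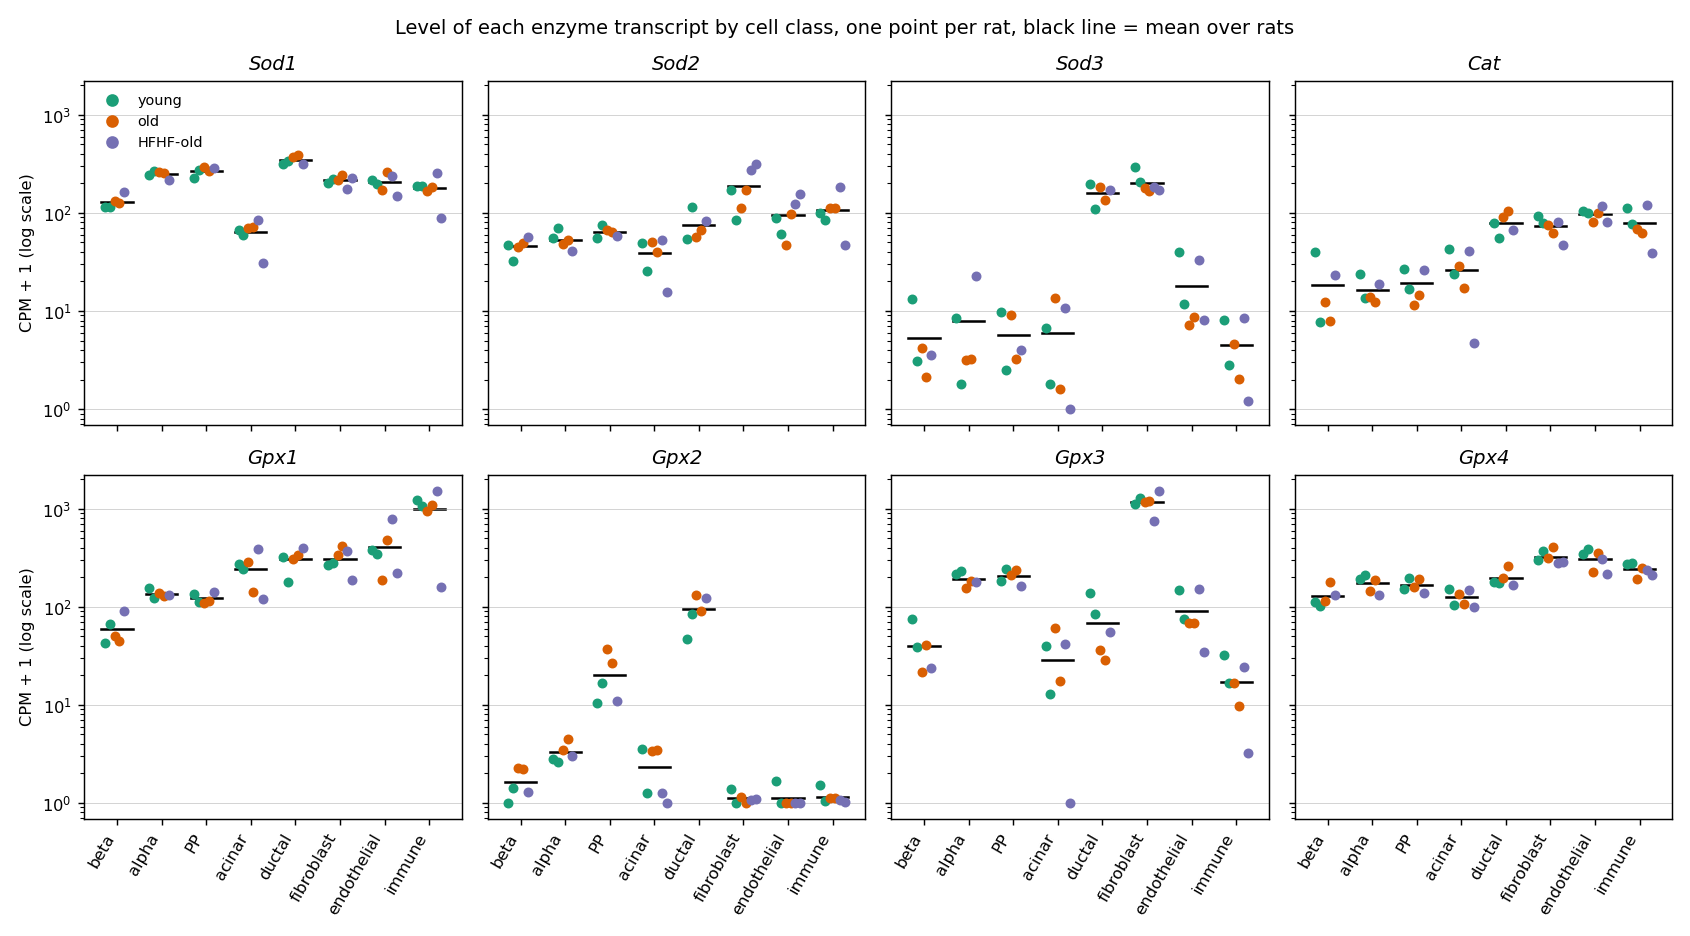
Level of each gene (CPM + 1, log axis) in 8 cell classes, with 1 point per rat coloured by group and a black line at the mean over rats. Gpx1 sits lowest in beta cells, Gpx2 stands out in ductal and PP cells, and Sod3 and Gpx3 are highest in fibroblasts.

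Sod1 and Gpx4 were called higher in beta cells than in several classes on the TMM scale, but in most of them not with total UMIs alone. Sod1 in beta cells was 113 and 114 CPM in the young rats, 132 and 127 in the old rats and 163 in the HFHF-old rat. This was below alpha (249 ± 21.1, mean ± SD, n = 5), PP (269 ± 24.7) and ductal cells (345 ± 31.5) and above acinar cells (63.0 ± 18.3, n = 6). With the hormone and digestive enzyme genes removed from the totals, the mean in beta cells was 452 CPM, rank 1 of the 8 classes, next to 435 in PP and 405 in alpha cells, and those 3 ranges overlapped. In the TMM fit Sod1 was higher in beta cells than in endothelial cells by 1.10 (SE 0.16, edgeR adjusted p = 1.57e-07), and the smallest called difference was 0.63 against acinar cells. Fibroblast, ductal and immune cells gave 0.82, 0.67 and 1.04, also called. Against alpha (0.17) and PP cells (0.10) Sod1 did not pass, and without the second young rat the acinar and ductal calls were lost. The acinar call was also lost without doublet-like cells and at the finer clustering (resolution 2). The ductal call was lost with DESeq2, with at least 30 cells per sum and with the hormone and digestive enzyme genes taken out (0.58). With total UMIs alone the direction turned against ductal, fibroblast, endothelial and immune cells, and Sod1 was called lower than in alpha (-0.96) and PP cells (-1.05).

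Gpx4 in beta cells was 112 and 101 CPM in the young rats, 113 and 179 in the old rats and 132 in the HFHF-old rat. The second old rat was highest. Fibroblasts (325 ± 50.9, mean ± SD, n = 6) and endothelial cells (305 ± 69.5) held most CPM, and acinar cells (124 ± 24.1) the least, next to beta cells. In the TMM fit Gpx4 was higher in beta cells than in ductal cells by 1.45 (SE 0.18, edgeR adjusted p = 1.74e-08). The other called differences were 0.75 against PP, 0.68 against alpha and 0.59 against immune cells, and all 4 were turned with total UMIs alone. The immune call was lost when either old rat, the second young rat or the doublet-like cells were left out, with no filter on low counts and at resolution 2. The alpha call was lost with at least 30 cells per sum and without the rat block. Sod2 in beta cells lay between 31.1 and 55.5 CPM, against 187 ± 91.2 in fibroblasts. In the TMM fit that pair was at -0.33 (SE 0.30, edgeR adjusted p = 0.354) and not called, and at -1.97 and called with total UMIs alone. With the hormone and digestive enzyme genes removed from the totals, Sod2 was lower in beta cells than in fibroblasts in 1 of 5 rats. Sod2 was called higher in beta than in ductal (1.43) and endothelial cells (0.87) on the TMM scale, and both turned with total UMIs alone. The endothelial call was lost without either old rat or the first young rat.

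The secreted enzymes and Gpx2 were marked by other classes. Sod3 was 167 to 291 CPM in fibroblasts of 6 rats and 109 to 194 in ductal cells of 5 rats. In beta cells it was 12.4 and 2.06 in the young, 3.16 and 1.11 in the old rats, and 2.54 in the HFHF-old one, which rest on 10 to 42 UMIs. The beta cell values lay below all values of both classes, and the TMM fit gave -4.61 against fibroblasts (SE 0.54, edgeR adjusted p = 1.12e-09) and -3.53 against ductal cells. The call of higher Sod3 in beta than in immune cells (1.72) was lost without the first young rat. That rat also had the highest Sod3 in its fibroblasts, and fibroblast markers summed to 488.5 CPM in its beta cells (10 of 11 markers above 0, Fbln1 at 0), against 472.5 in the other young rat, 197.5 and 106 in the old rats, and 230 in the HFHF-old one. The part of those transcripts in the Sod3, Cat and Gpx3 values was not tested.

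Gpx3 was 754 to 1526 CPM in fibroblasts of 6 rats, the highest mean of any member in that class. PP cells held 207 ± 34.8 and alpha cells 192 ± 29.7 (mean ± SD, n = 5), both above beta cells in every rat. In beta cells Gpx3 was 74.7 and 37.8 in the young rats, 20.8 and 39.4 in the old rats and 22.7 in the HFHF-old rat. The TMM fit gave -3.55 against fibroblasts (SE 0.48, edgeR adjusted p = 4.54e-08), -1.35 against PP and -1.21 against alpha cells. The PP call was lost when either old rat, the second young rat or the first HFHF-old rat was left out, and so was the alpha call. Both were lost without the rat block, and the alpha call also without doublet-like cells, with at least 30 cells per sum and with no filter on low counts. Gpx3 was higher in beta than in immune (2.87) and ductal cells (1.44). The ductal call was lost without the second old rat, and that value was -0.69 with total UMIs alone.

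Of the 8 classes compared, Gpx2 was highest in ductal cells and next in PP cells. Ductal cells held 45.9 and 84.6 CPM in the young, 131 and 90.6 in the old rats, and 121 in the HFHF-old one. PP cells held 9.36 and 15.6 in the young, 35.8 and 25.6 in the old rats, and 10.1 in the HFHF-old one. Alpha cells stayed between 1.60 and 3.52, and beta cells between 0 and 1.26, with 31 UMIs in all 5 rats together. The beta cell value of 0, in the first young rat, allows a level of up to 0.885 CPM (3 UMIs). The TMM fit gave -5.02 against ductal (SE 0.53, edgeR adjusted p = 6.93e-11) and -3.62 against PP cells. Higher values in beta than in immune (3.41), fibroblast (3.37) and endothelial cells (3.31) rest on these few UMIs, and the endothelial call was lost without the second old rat.

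Over the 56 pairs of a member and a class other than beta, 15 were called lower in beta cells and 19 higher on the TMM scale, against 21.3% and 22% of all gene and class pairs tested. By class, the share of all genes called lower in beta cells was 8.86% for alpha, 8.53% for PP, 24.2% for acinar, 20.1% for ductal, 28% for fibroblast, 26.7% for endothelial and 32.9% for immune cells. The share called higher was 10.6%, 9.63%, 24.1%, 24.2%, 26.9%, 28.4% and 30.1% in the same order. With the hormone and digestive enzyme genes taken out the counts were again 15 and 19, against 21.5% and 23.3% of all pairs. Among the higher pairs, Sod1 against ductal cells (0.58) was then lost and Sod2 against alpha cells (0.83) was gained. With total UMIs alone 35 pairs were lower and 4 higher, while 63.7% of all pairs were lower and 10.7% higher. The median of all genes against alpha cells was 0.02 with TMM and -1.07 with total UMIs, and against ductal cells it was 0.09 and -1.95. All 15 pairs called lower on the TMM scale were also called lower with total UMIs alone, and of the 19 called higher, 4 were: Sod1 against acinar, Gpx2 against fibroblast and immune, and Gpx3 against immune cells. Low Gpx1 and Cat beside acinar, fibroblast, endothelial and immune cells was thus called under both scalings, though 3 of those 8 calls needed the rat block, and high Sod1 and Gpx4 beside ductal and immune cells was not. With total UMIs alone the median of all genes was -1.66 against fibroblast, -1.78 against endothelial and -1.58 against immune cells. Outside acinar cells a pair lower on the TMM scale was thus set to stay lower, so that agreement is no separate evidence. Against acinar cells the median moved up, from 0.03 to 0.38, and Gpx1 and Cat were still called lower. Each rat with a beta cell sum had macrophage markers in its acinar cells, as given above. Only the second HFHF-old library had none there, and its acinar cells held 33 UMIs of Cat and Gpx1 together in 54 cells. Over the 2 HFHF-old rats the acinar level was 21.9 ± 25.7 CPM for Cat and 252 ± 189 for Gpx1 (mean ± SD). The part of macrophage transcripts in these acinar calls was not tested.

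**Figure D2:**
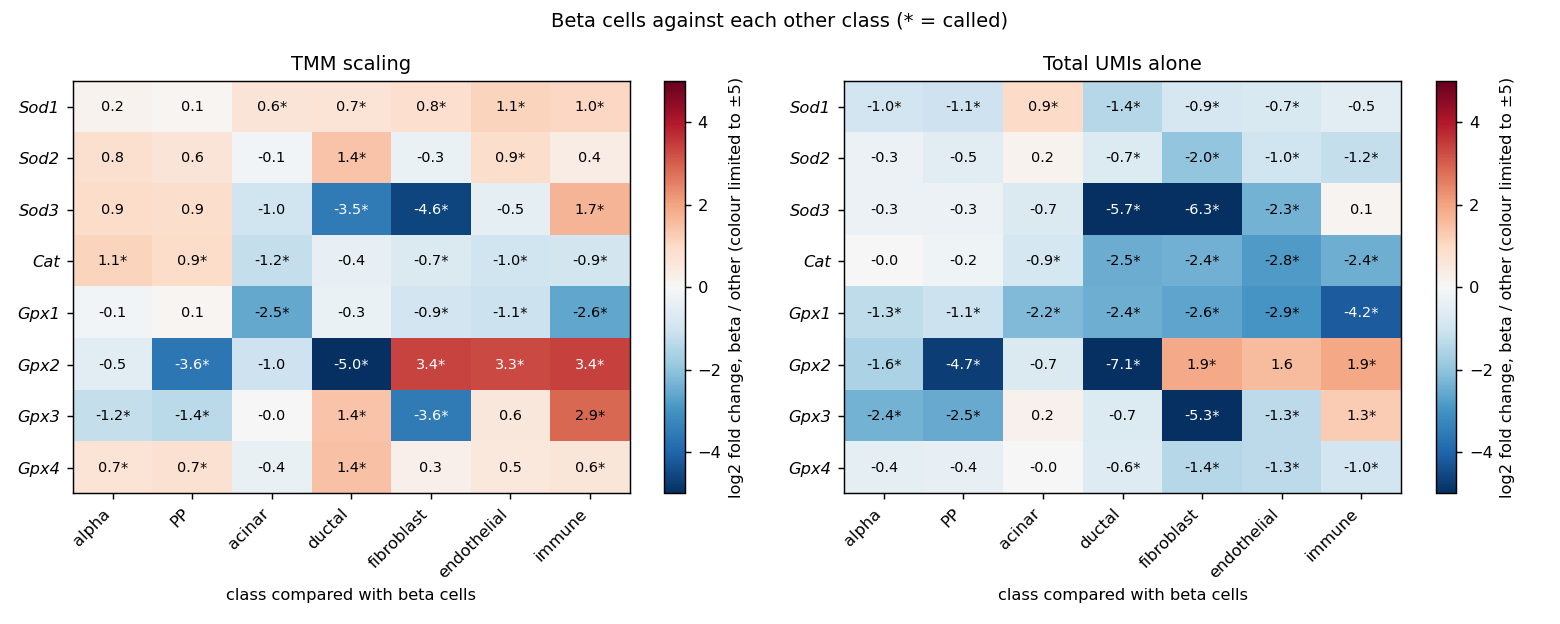
Fitted log2 fold change of each member in beta cells over each of 7 other classes (blue, lower in beta cells; red, higher; a star marks a call), scaled by TMM on the left and by total UMIs alone on the right. Gpx1 and Cat against acinar, fibroblast, endothelial and immune cells are blue and starred on both sides, and Sod1 and Gpx4 against ductal and immune cells change colour.

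A ratio within a cell class does not depend on the total. The UMIs of Cat and Gpx1 per 100 UMIs of Sod1 and Sod2 were 50.9 and 50.6 in beta cells of the young rats, 34.6 and 29.0 in the old rats and 51.5 in the HFHF-old rat. Gpx2, Gpx3, Gpx4 and Sod3 are not part of this ratio, so it does not describe the whole set of members. Both old rats were lowest, but the smallest 2-sided exact permutation p that 2 rats against 2 can give is 0.333. Alpha cells ranged from 40.2 to 60.1 and PP cells from 33.7 to 56.1, so the 3 hormone classes overlapped. Acinar cells ranged from 144 to 321, endothelial cells from 100 to 252 and immune cells from 146 to 464, all above the hormone classes. Acinar cells also held the least Sod1 in CPM of the classes compared and carried the macrophage markers given above. The lowest endothelial and immune values came from the second HFHF-old library, and without it those ranges began at 123 and 367. Ductal (51.6 to 117) and fibroblast cells (42.8 to 126) overlapped the endothelial cells. Their overlap with the hormone classes came from 1 rat each. Without the second young rat (47 UMIs of Cat and Gpx1) the ductal range began at 92.7, and without the second HFHF-old rat the fibroblast range began at 97.0. That HFHF-old rat is 1 of 2 in its group. Its fibroblast value of 42.8 rests on 2431 UMIs of Cat and Gpx1 and 5677 of Sod1 and Sod2, so few UMIs were not its limit.

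**Figure D3:**
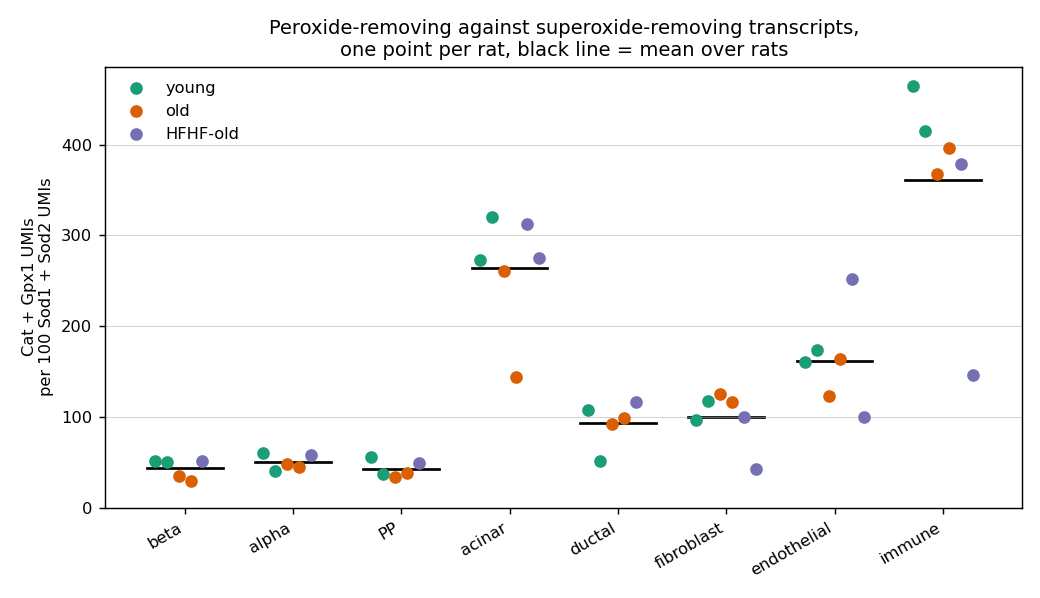
UMIs of Cat and Gpx1 per 100 UMIs of Sod1 and Sod2 in each cell class (linear axis from 0), with 1 point per rat coloured by group and a black line at the mean. Beta, alpha and PP cells sit between 29.0 and 60.1, and acinar, endothelial and immune cells sit at 100 or above.

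No member was called with age or diet in any of the 8 classes. The tests covered 59 pairs of member and class in each contrast, called at an edgeR adjusted p under 0.05 and a log2 fold change beyond the study's own limit. None was called for the HFHF-old over the old rats, where 0.0387% of all gene and class pairs were called. The same was found for age alone (0.136% of all pairs) and for HFHF-old over young rats (0.042%). In beta cells by themselves 0 of 7 members were called in each contrast, where 0.0175%, 0.0613% and 0.0613% of all genes were, and in ductal cells 1.05% of all genes were called with age. At an unadjusted p under 0.05 there were 4, 5 and 5 pairs, and DESeq2 called 0, 0 and 1. The smallest adjusted p was 0.0537, for Gpx3 in ductal cells of old against young rats (log2 fold change -1.86), where the young rats held 138 and 84.6 and the old rats 35.2 and 27.4 CPM. Doublet-like cells made up 52.5% and 70.6% of the ductal cells of the young rats against 13.8% and 17.5% in the old rats, and with those cells left out the value was -0.01. Fibroblast markers summed to 4412 and 6141 CPM in the ductal cells of the young rats, against 577 and 258 in the old. It was called when either the second young rat (-2.13) or the first old rat (-2.02) was left out. With 2 rats or fewer in a group the SE of a member in beta cells ran from 0.32 to 0.89 on the log2 scale for the first 2 contrasts, so that a missed threshold does not show equal levels.

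In beta cells the fitted log2 fold changes of old against young were -1.93 for Sod3 (SE 0.72), -1.41 for Cat (SE 0.59) and -1.01 for Gpx3 (SE 0.42), with edgeR adjusted p of 0.761, 0.863 and 0.856. The Cat and Sod3 values rest on the first young rat, since they were 0.01 and -0.47 without that rat. Gpx3 was at -0.69 without the first young rat and at -0.57 without the first old rat. Without the second young rat Cat (-2.11) and Sod3 (-2.65) were called. Gpx1 was at -0.47 (SE 0.40), Sod1 at -0.02 (SE 0.37), Sod2 at 0.10 (SE 0.32) and Gpx4 at 0.28 (SE 0.40), each with an adjusted p of 1.00. Gpx2 had too few UMIs in beta cells to be tested.

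For HFHF-old against old in beta cells the fit had 1 HFHF-old rat, which is assumed to vary like the other groups. Gpx3 was at -1.27 (SE 0.54, edgeR adjusted p = 0.785) and Gpx4 at -1.0 (SE 0.52, adjusted p = 0.785). Sod2 was at -0.58 (SE 0.40), Sod1 at -0.51 (SE 0.46), Sod3 at -0.45 (SE 0.89), Gpx1 at 0.11 (SE 0.49) and Cat at 0.47 (SE 0.69), with adjusted p from 0.789 to 0.965. With total UMIs alone Gpx4 was at -0.14 and Gpx3 at -0.41, and leaving out 1 rat moved Gpx4 between -1.35 and -0.55 and Gpx3 between -1.71 and -0.65. In CPM, Sod1, Sod2 and Gpx1 of that rat were the highest of the 5, while insulin was lowest, at 558809 CPM against 702119 to 773428. Its beta cells had a median of 32845 UMIs per cell against 1889 to 3122.5 in the other 4 rats, and the part of that difference in the values was not tested. Macrophage markers summed to 399 CPM in its beta cells, against 167 to 254.5 in the other 4 rats, and their part was not tested. For HFHF-old against young, with the same rat, Sod3 was at -2.39 (SE 0.93), Gpx3 at -2.29 (SE 0.57), Cat at -0.93 (SE 0.73), Gpx4 at -0.72 (SE 0.51), Sod1 at -0.53 (SE 0.46), Sod2 at -0.48 (SE 0.40) and Gpx1 at -0.36 (SE 0.50). The edgeR adjusted p was 0.285 for Gpx3 and from 0.503 to 0.840 for the others. The HFHF-old rat lay between the 2 young rats in CPM of Sod3 and Cat, with the first young rat highest. Sod3 was called without the second young rat (-3.11), and Gpx3 with DESeq2 (-2.27) and without the second old rat (-2.29). The fibroblast marker sums in beta cells given above were also highest in the 2 young rats, and their part in the Gpx3 values was not tested.

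**Figure D4:**
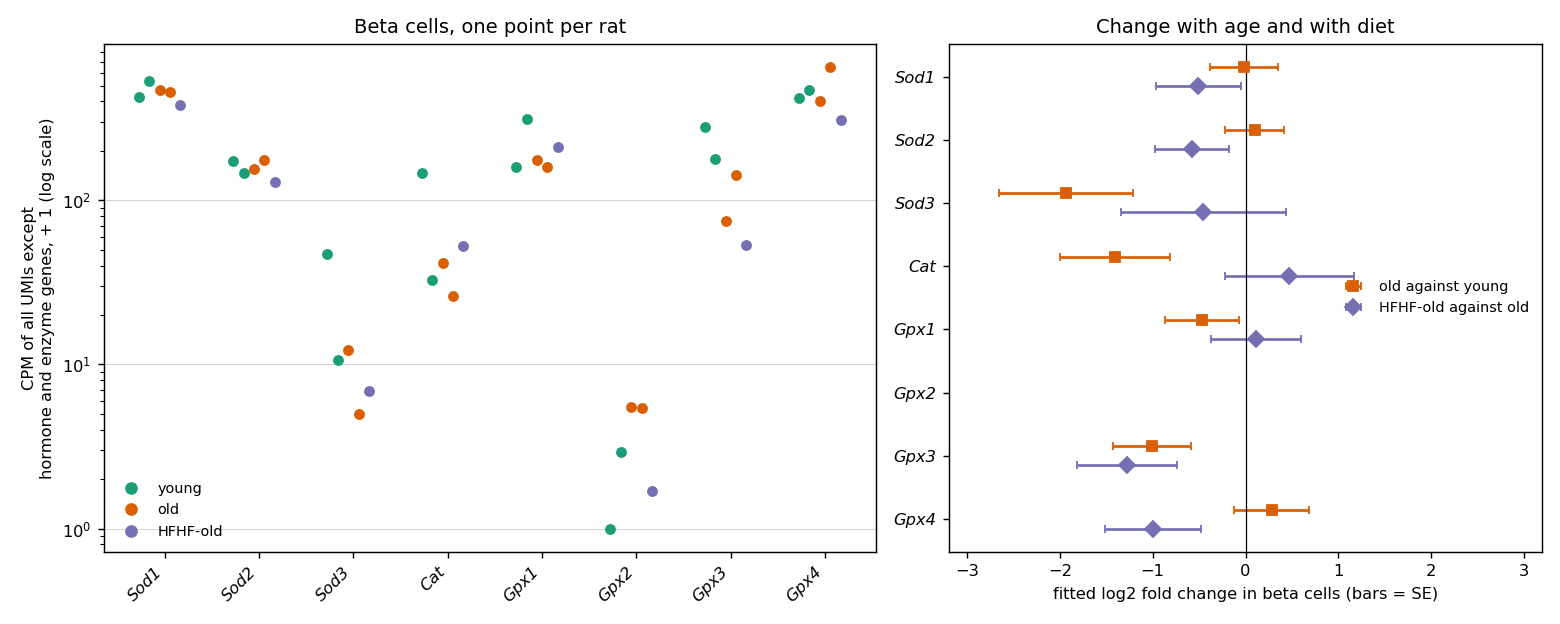
Left, level of each member in beta cells as CPM of all UMIs except those of hormone and digestive enzyme genes (+ 1, log axis), 1 point per rat. Right, fitted log2 fold change in beta cells with its SE for old against young (squares) and HFHF-old against old (diamonds), none of them called.

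In the 7 other classes the fitted changes ran from -2.06 to 2.64 on the log2 scale over the 3 contrasts, none of them called. The highest was Sod3 in alpha cells for HFHF-old against old (SE 0.94, edgeR adjusted p = 0.473), which rests on 11 UMIs in 24 cells of 1 HFHF-old rat. Sod3 in alpha cells was 7.54 and 0.802 CPM in the young, 2.13 and 2.24 in the old rats, and 21.8 in that rat. Fibroblast markers summed to 413 CPM in its alpha cells, against 164 to 1086 in the other 4 rats, and their part in the value was not tested. Sod2 in fibroblasts was 169 and 83.0 CPM in the young, 111 and 170 in the old rats, and 273 and 318 in the HFHF-old ones. Both HFHF-old rats lay above the other 4, with a fitted 1.03 over old (SE 0.38, edgeR adjusted p = 0.702). Endothelial cells held Sod2 at 138 ± 24.0 CPM in the HFHF-old rats (mean ± SD, n = 2). The old rats had 71.3 ± 35.7 there and the young rats 73.6 ± 19.2. Mean CPM of Sod2 was also higher in HFHF-old than in old rats in beta (55.5 against 46.1), ductal (81.9 against 60.7) and immune cells (116 against 111). It was lower in acinar (33.7 against 44.4), alpha (39.6 against 49.7), PP (57.3 against 64.3), T (30.7 against 47.1) and NK cells (46.2 against 62.8). The beta, ductal, alpha and PP values rest on 1 HFHF-old rat. In macrophages, fitted by themselves, Sod2 was 154 and 118 in the young, 210 and 196 in the old rats, and 235 in the HFHF-old one, with 0.64 for old against young (SE 0.18, adjusted p = 0.219). Gpx2 in PP cells lay higher in each of the old rats than in the other 3, with 1.43 over young (SE 0.41, adjusted p = 0.875) and -2.06 for HFHF-old against old (SE 0.58, adjusted p = 0.424). The first was called without the second young rat (2.10), and the second without the first (-2.05) or the second young rat (-2.06). The HFHF-old value of Gpx2 in PP cells came from 55 cells of 1 rat, and that of the first old rat from 71 cells. Whether a change differed between beta cells and another class was tested by an interaction in 56 pairs per contrast. Of these 0 were called, where 0.00801%, 0.0285% and 0.0338% of all pairs were, for the diet at old age, for age, and for both together. At an unadjusted p under 0.05 there were 5, 5 and 6.

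The genes around these enzymes were taken from lists of named pathway genes and counted as calls in beta cells against the 7 other classes on the TMM scale, where 22% of all gene and class pairs were higher and 21.3% lower. For the 4 genes of copper delivery, 7 of 28 pairs were higher and 5 lower, near those shares. Ccs, the copper chaperone of Sod1, was higher in 5 classes (0.86 to 1.56), and the copper exporter Atp7a was lower in 5 (-2.55 to -1.04). The copper chaperone Atox1 was higher than in ductal cells (0.92) and the copper importer Slc31a1 higher than in endothelial cells (0.94). For glutathione synthesis and recycling, 10 of 49 pairs were higher and 10 lower, which is close to the share of all genes. Gclm, the modifier subunit of the rate-limiting glutamate-cysteine ligase, was higher in all 7 classes compared (0.70 to 1.98), and Gclc, its catalytic subunit, was lower in 5 (-2.27 to -1.48). Ggt1 was lower in 2, Gsr in 1, and Gss and Slc7a11 went both ways.

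For peroxisomal import, which brings catalase to its organelle, 13 of 28 pairs were higher and 0 lower, with Pex2 higher in 6 classes, Pex13 in 4, Pex10 in 2 and Pex14 in 1. For selenoprotein synthesis, 6 of 42 pairs were higher (Sephs2, Sepsecs and Trnau1ap) and 1 lower (Eefsec). Of the other glutathione peroxidases only Gpx7 and Gpx8, which act in the endoplasmic reticulum, could be tested, with 2 of 14 pairs higher and 3 lower. Gpx7 was -3.11 and Gpx8 -5.19 against fibroblasts. For the producers of superoxide and peroxide, 13 of 77 pairs were higher and 24 lower. Ero1b, the oxidase of disulfide formation in the endoplasmic reticulum that yields hydrogen peroxide, was higher in all 7 classes compared (2.22 to 5.66), and Ero1a in 5. The phagocyte oxidase genes Cybb, Cyba, Ncf1, Ncf4 and Rac2 were lower in 2 to 5 classes each, Xdh in 4, and Nox4 was lower in 4 and higher in 1. Against acinar cells the phagocyte oxidase genes lay between -2.40 (Rac2) and -2.28 (Ncf4). Acinar cells carried the macrophage markers given above, and the part of macrophage transcripts in these calls was not tested. With age or diet 1 gene of these lists was called in any class, Xdh in ductal cells of old against young rats (log2 fold change -2.16, SE 0.39, edgeR adjusted p = 0.0432), where 1.05% of all genes were called. Those are the ductal cells with the unequal shares of doublet-like cells and the fibroblast markers given above, and without doublet-like cells Xdh was at 1.63 (SE 1.60) and not called. It was also not called with DESeq2, with no filter on low counts, with the replicate block or without the second young or the second old rat.

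With total UMIs alone, where 63.7% of all pairs were lower and 10.7% higher, the lists shifted too. Copper delivery then had 1 pair higher and 20 lower, glutathione synthesis and recycling 4 and 34, peroxisomal import 3 and 18, selenoprotein synthesis 3 and 35, the other glutathione peroxidases 1 and 7, and the producers of superoxide and peroxide 8 and 48. Ero1b was higher in all 7 classes on that scale as well, and Atp7a and Gclc were lower in all 7. Other genes turned in part. Gclm was higher in 1 class and lower in 1, Ccs higher in 1 and lower in 3, and Ero1a higher in 1 and lower in 4. Pex2 was higher in 1 and lower in 4, Pex13 and Pex14 each higher in 1 and lower in 6, and Pex10 lower in 2. Atox1 was lower in 6 and Slc31a1 in 4.

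The genes most alike in pattern were taken by Pearson's r of log2(CPM + 1) over the 44 sums of rat and class, among 9177 genes, as a description in which sums of 1 rat share a library. They included Ndfip1 and Zfp330 for Sod1 (r of 0.958 and 0.942), and Rab31, Sfxn3 and Zfp36l1 for Cat (0.928 to 0.946). Gpx1 was closest to Gm2a, Rhog and Rgs10 (0.891 to 0.903), Gpx2 to Anxa13, Klf5 and Pdzk1ip1 (0.946 to 0.952), and Sod3 to Prelp, Mmp14 and Arhgap42 (0.952 to 0.961). Gpx3 was closest to Serping1, Nov and Dennd2a (0.922 to 0.935), Gpx4 to Ocel1, Tnfsf12 and Tomm5 (0.878 to 0.886), and Sod2 to Slc48a1, AABR07021840.1 and Aff2 (0.827 to 0.847).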

How the data were processed

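Pancreas cells of 6 rats were read with the 10x Genomics 3′ v3.1 chemistry. The authors deposited UMI counts per gene and barcode from Cell Ranger (5.0.0 per the file headers, where the study's methods name another version), with Rnor_6.0 as the build in the submitters' processing notes. Barcodes with under 200 genes, over 25% mitochondrial counts or in the top 1% of gene number were removed, as in the study's methods, which left 75201 of 78024. Cells were clustered (leidenalg 0.10.2, resolution 1, 10 principal components, 15 neighbours) with 48 genes held out, the 8 members and their pathway lists. Clusters were named from marker lists, 7.79% of cells stayed unnamed, and clusters led by intestinal genes were kept out of the ductal class by a list added after they were seen. Islet cells took the type of their dominant hormone; its share of hormone UMIs was under 60% in 100 of 1832 beta, 60 of 1616 alpha and 41 of 977 PP cells. Doublet-like cells (8113) were marked by simulated doublets and kept, and left out in an alternative.

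UMIs were summed per rat and class with at least 10 cells. Group contrasts used edgeR 4.0.16 (TMM, filterByExpr, quasi-likelihood) in 1 fit per class over the 3 groups. Beta cells were compared with the 7 other classes in 1 fit over 44 sums with the rat as a block. Each SE of an edgeR value was back-calculated, as the absolute log2 fold change over the square root of the quasi-likelihood F. Benjamini-Hochberg adjustment ran over all genes, and calls needed an adjusted p under 0.05 and a log2 fold change beyond 0.585, the study's thresholds. DESeq2 1.42.0 was an alternative. The steps were tested on simulated data. For old against young in beta cells, 3.16% of simulated log2 changes of 1 and 53.1% of those of 2 were recovered. For HFHF-old against old these shares were 4.12% and 36.5%, and for beta against alpha cells 53.5% and 88%. Apart from the changes set, each simulated gene had the same mean level in every sum. The large insulin share of beta cells was thus not part of it, and scaling between classes of unlike composition was not tested. Most changes of 1 with age or diet in beta cells would thus be missed. Every member was described, changes were printed for every member in beta cells and for called pairs, and pathway genes called in beta cells were named. The pathway lists with total UMIs alone and Xdh under each alternative were added after seeing the data. The members and lists were chosen with earlier results of these data known. The rats are the replicates (n = 2 per group), and floors of 3 UMIs cover counting error only. One gene among those most alike in pattern is not reported here.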

Additional observations from a re-analysis of the deposited data

How the results depend on the processing

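With 0 members called with age or diet, the count was 1 for HFHF-old against old without doublet-like cells, 1 for old against young with hormone and enzyme genes taken out, with the older quasi-likelihood method or with at least 30 cells per sum, and 1 for HFHF-old against young with DESeq2 (Gpx3 in beta cells, -2.27). Leaving out 1 rat gave 0 to 4 for HFHF-old against old, 0 to 4 for old against young and 0 to 5 for HFHF-old against young. The 4 and 5 came without the first HFHF-old rat, all in immune cells, where the NK-rich second library then stood alone. Without the second young rat, Cat and Sod3 in beta cells, Gpx3 in ductal and Gpx2 in PP cells were called for old against young. A replicate block gave 0 calls in each contrast. Same-numbered rats deviated together with correlations from -0.156 to 0.233 over classes, not above 0.1 in every pair, so the numbers were not taken to pair the rats. For beta cells against other classes, total UMIs alone gave 35 lower and 4 higher pairs in place of 15 and 19. Leaving out 1 rat gave 13 to 17 lower and 15 to 21 higher pairs, and without the rat block there were 10 and 19. Of the 34 called pairs, 19 were called under every alternative other than total UMIs alone. Turned by total UMIs alone were Sod1 against ductal (-1.42), fibroblast (-0.85), endothelial (-0.75) and immune (-0.52), Sod2 against ductal (-0.68) and endothelial (-0.99), Cat against alpha (-0.0056) and PP (-0.22), Gpx3 against ductal (-0.69), and Gpx4 against alpha (-0.45), PP (-0.39), ductal (-0.63) and immune cells (-0.97). The median of all genes moved the same way with that scaling, from 0.09 to -1.95 against ductal and from 0.01 to -1.78 against endothelial cells. These pairs thus moved along with the median gene, and no cause particular to them was tested.

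In beta cells, several uncalled values changed sign. For HFHF-old against old these were Sod1 (0.33), Sod2 (0.27) and Sod3 (0.36) with total UMIs alone, Sod3 at resolution 2 (0.67) and Cat with the replicate block (-0.23), and leaving out 1 rat moved Sod3 between -1.08 and 0.27. For old against young they were Sod1 with total UMIs alone (0.19), with no filter on low counts (0.039) and at resolution 2 (0.13), and Gpx1 with 80% of hormone UMIs required (0.23). Leaving out 1 rat moved Sod1 between -0.21 and 0.20, Sod2 between -0.063 and 0.25, Cat between -2.11 and 0.0078, Gpx1 between -0.90 and 0.15, and Gpx4 between -0.18 and 0.64. The minimum of 2000 UMIs per cell was an alternative chosen after seeing the data and gave counts within 1.5 times of those reported. Depth limits Gpx2 and Sod3 most, with 31 and 103 UMIs over all beta cells.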

Other observations

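Further cell types of the same libraries were not compared by themselves. Neutrophils, which make peroxide in host defence and were counted within the immune class, held Gpx1 at 1185 to 1667 CPM in 6 rats and Sod2 at 119 to 300.5. Smooth muscle cells held 282 to 788 of Gpx1 and 68.5 to 153 of Sod3 in 5 rats, and mesothelial cells 286 to 744 of Gpx1 in 4 rats. Delta cells, the somatostatin cells of the islet, were seen in numbers of 10 or more only in the young rats (25 and 10 cells), and their levels ran from 107 to 114 for Gpx1, 24.55 to 33.45 for Cat, 172 to 341 for Gpx3 and 13.4 to 21.5 for Gpx2.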
